A study of Mus musculus with 12 samples.

Results

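The guanylate-binding protein (Gbp) genes were examined in 12 intracranial melanoma tumors of mice. The members were the rows of the count table named Gbp2, Gbp2b, Gbp3, Gbp4, Gbp5, Gbp6, Gbp7, Gbp8, Gbp9 and Gbp10, 10 genes of 54532. All 10 passed a filter on low counts that kept 17320 genes, and Gbp2b did not pass it when the ΔNK and IgG tumors were filtered on their own. The genes were chosen by name, and the family was selected on its measured levels in CD8H tumors, so its values in CD8H tumors are given as a description, without p-values, and nothing is read from the number of members called there. Comparisons among the ΔNK, CD8L and IgG tumors were tested.

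Tumor libraries labelled as 3 replicates were sequenced in each of 4 groups, and all mice were C57BL/6J animals of 6 to 10 weeks, male and female, with a genotype labelled WT. B16-OVA melanoma cells, which express ovalbumin, were placed under the skin of the flank, and B16-OVA/Fluc cells, which also express firefly luciferase, into the striatum 3 days later, so every tumor came from the same cultured melanoma line. CD8H and CD8L mice received antibodies against PD-1 and CTLA-4 (PC blockade, 200 µg of each antibody per dose), mice depleted of NK cells (ΔNK) were given PC blockade with 100 µg of a depleting antibody every 4 days, and IgG mice received control antibody. Blockade was given on days 5 and 7 after intracranial implantation by the submitters' design text and on days 4 and 6 by the methods for the same schedule, and tumors were taken on day 8. The depleting antibody is named anti-Asialo-GM2 in the labels and anti-Asialo-GM-1 in the methods. The CD8H and CD8L mice had the same treatment and were separated by the study on the abundance of CD8+ T cells in their tumors, so levels of T cell genes in these groups follow from how the mice were sorted.

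Gbp proteins are large GTPases of the dynamin superfamily whose genes are among those most strongly induced by interferon gamma. Binding of interferon gamma to its receptor activates the kinases Jak1 and Jak2, and signaling reaches DNA elements called gamma-activated sites (GAS), while the interferon-stimulated response element (ISRE) is bound by interferon regulatory factors. In mouse macrophages the proteins assemble on the vacuoles of intracellular pathogens and promote activation of inflammasomes. In the mouse the genes form a cluster on chromosome 3 and another on chromosome 5.

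Total counts were 16336993 to 26416214 per tumor. The summed CPM (counts scaled by TMM-normalized library size) of 5 NK cell markers was 0.728 to 1.00 in ΔNK tumors, against 3.12 to 29.7 in the 9 other tumors. The summed CPM of 6 melanoma markers was 8432 to 24428 over all 12 tumors, and markers of neurons (summed CPM 399.7 to 1838), astrocytes (223 to 1749.7) and oligodendrocytes (251 to 2180.4) were detected in every tumor. ΔNK tumor 2 stood apart in the Gbp genes, though not in them alone, and the comparisons of ΔNK tumors with CD8L and IgG tumors are given with and without it.

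Gbp2, Gbp2b, Gbp3, Gbp5 and Gbp7 lie on the plus strand of chromosome 3 of GRCm38 between 142493978 (start of Gbp5) and 142638008 (end of Gbp2). Gbp4, Gbp6, Gbp8, Gbp9 and Gbp10 lie on the minus strand of chromosome 5 between 105014150 (start of Gbp8) and 105293698 (end of Gbp6). All 10 are annotated as protein coding. The annotated genes Gbp4, Gbp8 and Gbp9 overlap by 60 to 61 exonic bases each. Because a read from a stretch that 2 genes share cannot be assigned to 1 of them, the share of each gene's transcript stretches of 100 bases that occur in another gene was computed from the GENCODE transcripts. This share was 73.5% in Gbp10 and 64.5% in Gbp6, 10.01% in Gbp7, 4.39% in Gbp8 and 0 to 1.65% in the 6 others. The main partner was Gm43302 for Gbp6 (59.0%) and Gbp10 (63.6%), an annotated gene that spans both and had 0 to 5 counts per tumor, and the processed pseudogene Gm43802 for Gbp7 (9.59%), which lies within Gbp7 and had 0 counts. Gbp2 and Gbp2b had no shared stretch of 100 bases, although their coding sequences are 82.5% identical. How reads were counted that match several places or overlap several genes is not given in the sources used here. The split of reads between Gbp6 and Gbp10 is therefore uncertain, and the counts of each chromosome cluster were also summed and tested as 1 feature. If shared reads were left uncounted, they are missing from these sums too.

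The coding sequences of Gbp6 and Gbp10 are 98.4% identical over 1833 aligned bases, with 30 differences and a longest identical run of 421 bases. The stretch from coding base 1546 to coding base 1645 holds 12 of the 30 differences, and it is shown because reads from here could be told apart while reads from most of the remaining sequence could not. Capitals mark the bases at which the 2 genes differ, and the sequence is from GENCODE transcripts on GRCm38.
Gbp6: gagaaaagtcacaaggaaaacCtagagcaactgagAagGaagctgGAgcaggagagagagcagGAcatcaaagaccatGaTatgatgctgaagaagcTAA
Gbp10: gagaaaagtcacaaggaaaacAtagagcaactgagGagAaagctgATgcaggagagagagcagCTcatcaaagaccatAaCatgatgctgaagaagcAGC
Between the other pairs of chromosome 5 members, coding identity was 88.9% to 91.9%, and on chromosome 3 it was 77.9% between Gbp3 and Gbp7 and lower than that in every pair other than Gbp2 with Gbp2b.

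Promoter windows were available from RefSeq (GRCm38.p6) for 5 of the 10 members, the chromosome 3 genes Gbp2, Gbp2b, Gbp3, Gbp5 and Gbp7, each holding 250 bases before and 50 bases after a transcription start. Both strands were searched for GAAA, any 2 bases and GAAA, the core of an ISRE, and for TTC, any 3 bases and GAA, the core of a GAS, which reads the same on both strands. All 5 genes held the ISRE letters in a window, as did 3.99% of all 27025 genes with windows of this length (3.44% of 32851 windows). The GAS letters occurred in Gbp5 and Gbp7, at 2 places each, and in 9.55% of all genes (8.3% of windows). The ISRE match began 165 bases before the start in Gbp5, 53 in Gbp7, 137 in Gbp2b and 59 in Gbp2, and Gbp3 held 2 overlapping matches, 45 and 39 bases before its start. A match is a description of letters and not of binding. The windows are shown because these genes varied together across the tumors, with matches to either motif in capitals. They lie at chr3:142496684-142496983 (Gbp5), chr3:142530086-142530385 (Gbp7), chr3:142559794-142560093 (Gbp3), chr3:142594597-142594896 (Gbp2b) and chr3:142620413-142620712 (Gbp2), all on the plus strand.
Gbp5: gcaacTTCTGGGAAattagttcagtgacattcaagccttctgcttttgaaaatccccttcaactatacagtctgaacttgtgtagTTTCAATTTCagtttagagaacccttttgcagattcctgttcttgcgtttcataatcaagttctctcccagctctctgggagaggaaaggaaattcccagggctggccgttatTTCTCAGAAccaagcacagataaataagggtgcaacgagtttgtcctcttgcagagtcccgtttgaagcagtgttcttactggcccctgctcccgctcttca
Gbp7: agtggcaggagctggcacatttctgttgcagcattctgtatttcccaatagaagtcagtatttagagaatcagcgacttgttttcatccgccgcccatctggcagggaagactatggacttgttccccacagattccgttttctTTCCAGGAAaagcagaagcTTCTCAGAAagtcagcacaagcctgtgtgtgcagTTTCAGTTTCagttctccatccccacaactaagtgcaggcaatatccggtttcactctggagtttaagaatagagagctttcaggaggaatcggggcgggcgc
Gbp3: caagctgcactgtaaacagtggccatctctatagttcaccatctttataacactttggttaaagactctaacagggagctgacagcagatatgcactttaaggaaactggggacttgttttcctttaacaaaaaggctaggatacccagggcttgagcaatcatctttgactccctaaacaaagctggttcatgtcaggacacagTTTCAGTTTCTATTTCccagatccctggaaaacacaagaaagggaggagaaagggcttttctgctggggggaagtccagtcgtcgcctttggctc
Gbp2b: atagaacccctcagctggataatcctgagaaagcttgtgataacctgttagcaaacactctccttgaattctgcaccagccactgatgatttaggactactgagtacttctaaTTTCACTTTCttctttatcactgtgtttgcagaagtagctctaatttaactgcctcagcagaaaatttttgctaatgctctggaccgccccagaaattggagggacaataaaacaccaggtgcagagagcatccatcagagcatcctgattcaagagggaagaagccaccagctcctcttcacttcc
Gbp2: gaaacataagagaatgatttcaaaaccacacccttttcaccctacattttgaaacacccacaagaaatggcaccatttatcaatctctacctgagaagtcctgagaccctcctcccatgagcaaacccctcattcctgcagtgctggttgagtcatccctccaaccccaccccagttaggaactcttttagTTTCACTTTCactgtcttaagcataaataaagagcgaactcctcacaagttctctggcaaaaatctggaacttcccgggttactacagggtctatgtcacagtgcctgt
Gbp3 had a further window at a later start, which held neither motif.

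On the FPKM scale, which is set per length and allows levels to be compared between genes, Gbp2 was the most abundant member in every tumor. Its FPKM was 1770.0, 1529 and 1070.4 in CD8H tumors, 227, 8.00 and 194 in ΔNK tumors, 625, 274 and 384 in CD8L tumors and 361, 248 and 237 in IgG tumors. Gbp2 made up 44.3% to 62.3% of the summed FPKM of the 10 members, and Gbp2b, its closest relative in sequence, made up 0 to 0.452%. The summed FPKM of the family was 3607, 3155 and 2348 in CD8H tumors, 364, 18.0 and 345 in ΔNK tumors, 1065, 558 and 861 in CD8L tumors and 809.9, 531 and 525 in IgG tumors. The 3 CD8H tumors lay above and the 3 ΔNK tumors below all others, and the CD8L and IgG tumors overlapped.

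**Figure D1:**
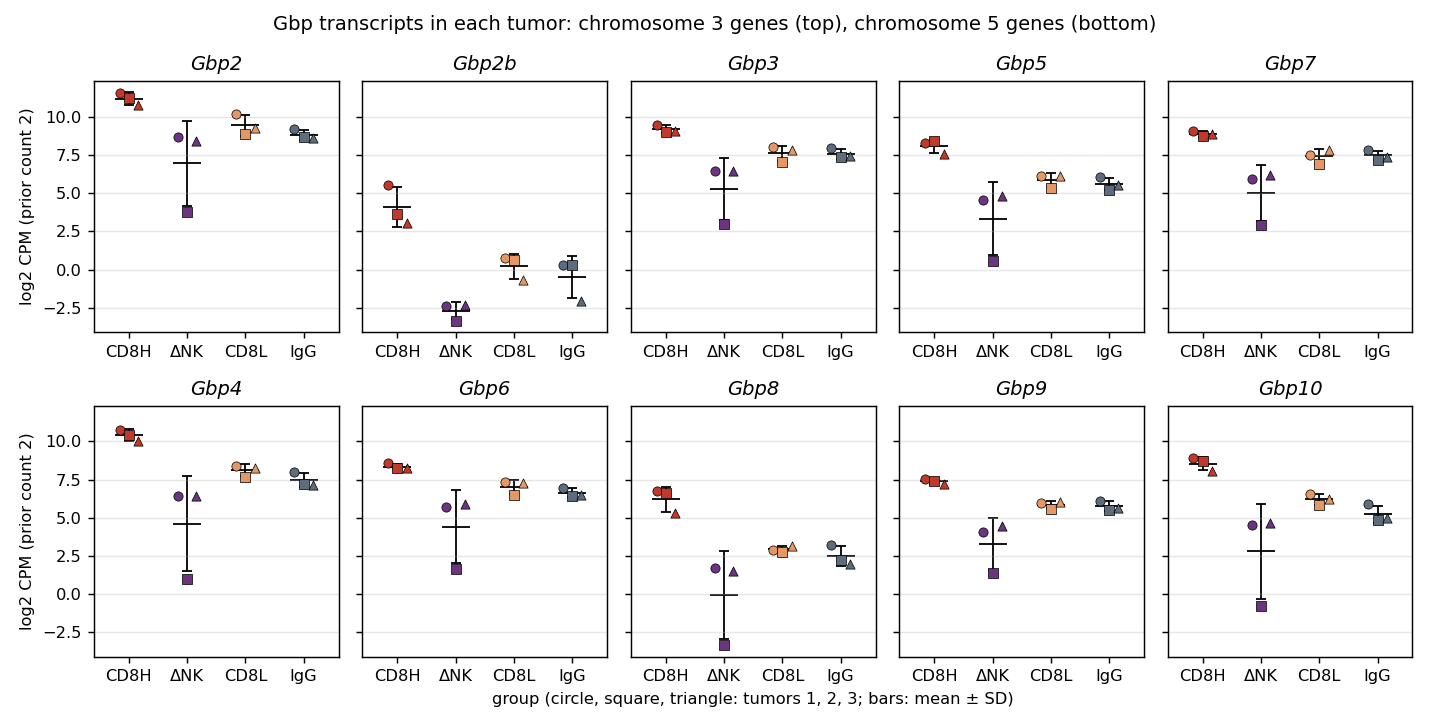
Transcript level of each Gbp gene (log2 CPM with a prior count of 2) in the CD8H, ΔNK, CD8L and IgG groups. Each symbol is 1 tumor, bars give the mean ± SD (n = 3), the 3 CD8H tumors lie above the 9 others in all 10 genes, and ΔNK tumor 2 (square) is the lowest tumor in all 10.

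The order of the group means was CD8H, CD8L, IgG and ΔNK, high to low, for 9 of the 10 members, and for Gbp7 the IgG mean was above the CD8L mean. The CD8L and IgG tumors, which are neighbors in this order, overlapped in all 10 members. The share of all tested genes in which they overlapped is not given here, so nothing particular to the family is read from this. The 3 CD8H tumors lay above the 9 others in all 10 members, as in 10.6% of all tested genes. The 3 ΔNK tumors lay below the 9 others in 9 members, all but Gbp2, as in 4.32% of all tested genes. Without ΔNK tumor 2, the other ΔNK tumors lay below the 9 others in the same 9 members, as in 5.18% of all tested genes. Gbp2b is among these members and passed the filter on low counts only through groups where it was higher.

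Gbp2 and Gbp5 encode proteins that end in a motif for attachment of a lipid (prenylation), through which they are held on membranes, and Gbp2b is the gene also known as mouse Gbp1. Gbp2 was 3050.0, 2403 and 1744 CPM in CD8H tumors, 412, 13.3 and 338 CPM in ΔNK tumors, 1172, 462 and 618 CPM in CD8L tumors and 592, 402 and 396 CPM in IgG tumors. CD8H tumors lay above all others, ΔNK tumor 1 lay within the IgG range, and CD8L tumor 1 was the highest of the 9 tumors outside CD8H. The log2 fold change of Gbp2 was 2.43 (SE 0.61) for CD8H tumors over the average of the 3 other groups.

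Gbp2b was the member with the fewest counts. It was counted 988, 300 and 159 times in CD8H tumors, 2, 0 and 2 times in ΔNK tumors, 38, 26 and 11 times in CD8L tumors and 22, 20 and 3 times in IgG tumors. These counts correspond to 47.1, 12.5 and 8.07 CPM in CD8H tumors and to at most 1.60 CPM in any other tumor. The log2 fold change of CD8H tumors over the average of the 3 other groups was 5.77 (SE 0.64), the largest of the 10 members, and without CD8H tumor 1 it was 4.63. Every difference of Gbp2b that involves ΔNK tumors rests on 4 counts over those 3 tumors.

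Gbp5, which promotes assembly of the Nlrp3 inflammasome in mouse macrophages, was 318, 336 and 194 CPM in CD8H tumors, 24.0, 1.40 and 28.3 CPM in ΔNK tumors, 70.1, 41.1 and 68.5 CPM in CD8L tumors and 66.5, 37.4 and 45.4 CPM in IgG tumors. The 3 CD8H tumors lay above and the 3 ΔNK tumors below all others, and Gbp5 was the only member whose highest value was not in CD8H tumor 1. The log2 fold change for CD8H tumors over the averaged other groups was 2.91 (SE 0.50).

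Gbp3 and Gbp7 form a related pair within the chromosome 3 cluster, and Gbp7 is known from mouse macrophages to act with the phagocyte oxidase. Gbp7 was 542, 426 and 459.5 CPM in CD8H tumors, 60.9, 7.52 and 72.2 CPM in ΔNK tumors, 183, 119 and 229.7 CPM in CD8L tumors and 226, 147 and 167 CPM in IgG tumors. Gbp3 was 717, 523 and 528 CPM in CD8H tumors, 87.3, 7.64 and 87.5 CPM in ΔNK tumors, 256, 135 and 225 CPM in CD8L tumors and 251, 165 and 172 CPM in IgG tumors. In both genes the CD8H tumors lay above and the ΔNK tumors below all others, with CD8L and IgG tumors overlapping. The count of Gbp3 was 97.9% to 143% of the count of Gbp7 over all 12 tumors. Log2 fold changes for CD8H tumors over the averaged other groups were 2.13 (SE 0.47) in Gbp3 and 2.05 (SE 0.43) in Gbp7.

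Of the chromosome 5 genes, Gbp4 had the highest FPKM in 11 of 12 tumors, and in ΔNK tumor 2 Gbp6 (FPKM 0.833) was level with it (0.815). Gbp4 was 1742, 1400.4 and 1051 CPM in CD8H tumors, 87.1, 1.94 and 84.3 CPM in ΔNK tumors, 339, 203 and 307 CPM in CD8L tumors and 257, 148 and 145 CPM in IgG tumors. The 3 CD8H tumors lay above and the 3 ΔNK tumors below all others, with a log2 fold change of 3.28 (SE 0.61) for CD8H tumors over the averaged other groups.

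Gbp8, a low-count member, was 106, 96.9 and 39.1 CPM in CD8H tumors, 3.14, 0 and 2.71 CPM in ΔNK tumors, 7.25, 6.84 and 8.98 CPM in CD8L tumors and 9.37, 4.70 and 3.83 CPM in IgG tumors. Gbp9 was 188, 173 and 148 CPM in CD8H tumors, 16.4, 2.49 and 22.3 CPM in ΔNK tumors, 62.7, 47.8 and 65.0 CPM in CD8L tumors and 69.1, 45.1 and 49.5 CPM in IgG tumors. Both genes had CD8H tumors above and ΔNK tumors below all others, and the log2 fold change for CD8H tumors over the averaged other groups was 4.17 (SE 0.57) in Gbp8 and 2.26 (SE 0.38) in Gbp9. The count of Gbp8 was 26.5% to 56.7% of that of Gbp9 in CD8H tumors, 0 to 19.2% in ΔNK tumors, 11.6% to 14.3% in CD8L tumors and 7.73% to 13.6% in IgG tumors.

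Gbp6 was 377, 303 and 304 CPM in CD8H tumors, 53.2, 3.03 and 58.6 CPM in ΔNK tumors, 164, 90.8 and 152 CPM in CD8L tumors and 126, 86.3 and 91.6 CPM in IgG tumors. Gbp10 was 475, 413 and 271 CPM in CD8H tumors, 23.1, 0.485 and 25.3 CPM in ΔNK tumors, 94.9, 56.5 and 74.5 CPM in CD8L tumors and 58.8, 29.0 and 31.4 CPM in IgG tumors. Despite their near-identical coding sequences, shown above, both counts did not keep a constant ratio. The Gbp10 count was 126%, 136% and 89.4% of the Gbp6 count in CD8H tumors, 43.4%, 16% and 43.2% in ΔNK tumors, 58.0%, 62.2% and 49.0% in CD8L tumors and 46.6%, 33.6% and 34.3% in IgG tumors. The CD8H tumors lay above and the CD8L tumors above the IgG tumors in this ratio, and how shared reads were divided cannot be told apart from a change in transcript levels. Log2 fold changes for CD8H tumors over the averaged other groups were 2.02 (SE 0.51) in Gbp6, the smallest of the family, and 3.40 (SE 0.57) in Gbp10.

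The make-up of the family, as shares of its summed FPKM, differed between groups in Gbp4. Gbp4 made up 19.6%, 19.8% and 19.2% in CD8H tumors, 9.22%, 4.51% and 9.84% in ΔNK tumors, 11.9%, 15.1% and 15.6% in CD8L tumors and 13.6%, 12.03% and 11.6% in IgG tumors. The CD8H tumors were above and the ΔNK tumors below all others. The share of Gbp10 had the same CD8H position (5.65% to 6.63%, against 1.28% to 4.77% in the 9 others). Gbp3 ran the other way between CD8H and IgG tumors, at 11.6% to 15.2% in CD8H tumors and 20.9% to 21.7% in IgG tumors. The shares of ΔNK tumor 2 rest on a summed FPKM of 18.0.

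**Figure D2:**
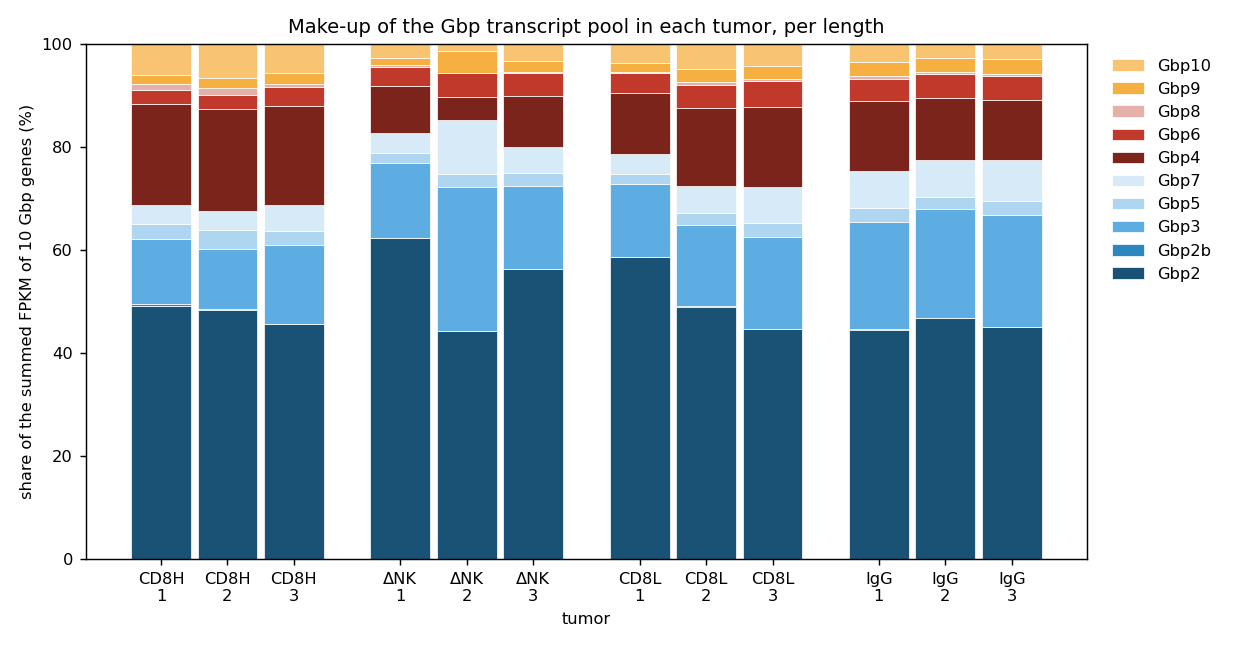
Share of each Gbp gene in the summed FPKM of the 10 genes (percent, bars from 0 to 100) in each of the 12 tumors, blue shades for chromosome 3 and red and orange shades for chromosome 5. Gbp2 is the largest share in every tumor (44.3% to 62.3%), and the Gbp4 share is 19.2% to 19.8% in the 3 CD8H tumors.

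In CD8H tumors over the average of the 3 other groups, all 10 members were called higher by edgeR's quasi-likelihood test, a count that follows from how the family was selected, where 26.3% of all tested genes were called and 14.4% were called higher. The median log2 fold change was 2.67 over the members and 0.05 over all tested genes. Against ΔNK tumors alone, 10 members were called (30.3% of all tested genes) with log2 fold changes of 3.10 to 8.24. Against CD8L tumors alone, 2 members were called, Gbp2b and Gbp8 (11.2% of all tested genes), with log2 fold changes of 1.28 to 4.24 over the 10. Against IgG tumors alone, 1 member was called, Gbp2b (0.745% of all tested genes), with log2 fold changes of 1.40 to 4.83 over the 10. Both of these counts rest on single libraries, and all 10 members were called in each comparison when ΔNK tumor 2, which enters the estimate of the spread, was left out (11.5% of genes against CD8L and 4.2% against IgG tumors). When one of the other 11 tumors was left out, 0 to 2 members were called in either comparison. The shares of all tested genes called in those fits are not given here, so these counts cannot be set against all genes. The summed CPM of 6 CD8 T cell markers was 127 to 384 in CD8H tumors and 0.425 to 30.6 in the 9 others, and that of 6 macrophage markers was 344 to 447 in CD8H tumors and 81.7 to 240.8 in the 9 others. Of these 6 macrophage genes, 5 had positive log2 fold changes for CD8H tumors over the averaged other groups and 1 was negative (-0.33). Dendritic cell markers (63.9 to 105 CPM in CD8H tumors, 10.1 to 56.4 in the 9 others) and B cell markers (8.28 to 16.9 in CD8H tumors, 1.27 to 4.31 in the 9 others) also lay above. Neutrophil markers lay above too (19.7 to 36.2 in CD8H tumors, 2.43 to 13.1 in the 9 others), and of their 5 genes only 2 passed the filter on low counts. NK cell markers also lay above, at 16.6 to 29.7 CPM in CD8H tumors and 0.728 to 14.0 CPM in the 9 others. The melanoma marker sum lay below, at 8432 to 15895 CPM in CD8H tumors and 16898 to 24428 CPM in the 9 others. In bulk tissue, fewer cells of a type and less RNA per cell cannot be told apart, and the part of these cell types in the Gbp values was not tested.

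Summed by cluster, the chromosome 5 sum was 2889.5, 2388 and 1813 CPM in CD8H tumors, 183, 7.95 and 193 CPM in ΔNK tumors, 668, 405 and 608 CPM in CD8L tumors and 521, 313 and 321 CPM in IgG tumors. The chromosome 3 sum was 4676, 3702 and 2934 CPM in CD8H tumors, 585, 29.9 and 526 CPM in ΔNK tumors, 1682, 759 and 1141 CPM in CD8L tumors and 1137, 753 and 781 CPM in IgG tumors. Both sums placed the CD8H tumors above and the ΔNK tumors below all others. The log2 fold change for CD8H tumors over the average of the 3 other groups was 2.97 (SE 0.56) for the chromosome 5 sum and 2.35 (SE 0.55) for the chromosome 3 sum. For ΔNK against CD8L tumors the chromosome 5 and 3 sums had -2.13 and -1.65 (SE 0.79 and 0.76, edgeR adjusted p = 0.694 and 0.840). For ΔNK against IgG tumors they had -1.59 and -1.23 (SE 0.77 and 0.75, edgeR adjusted p = 0.351 and 0.406). For CD8L against IgG tumors they had 0.54 and 0.42 (edgeR adjusted p = 0.974 for both). Neither sum passed the test in these comparisons. Gbp11, a polymorphic pseudogene of the chromosome 5 cluster that is not among the 10 members, was 154 to 408 CPM in CD8H tumors, 2.06 to 21.0 CPM in ΔNK tumors, 31.5 to 48.1 CPM in CD8L tumors and 14.5 to 26.7 CPM in IgG tumors.

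**Figure D3:**
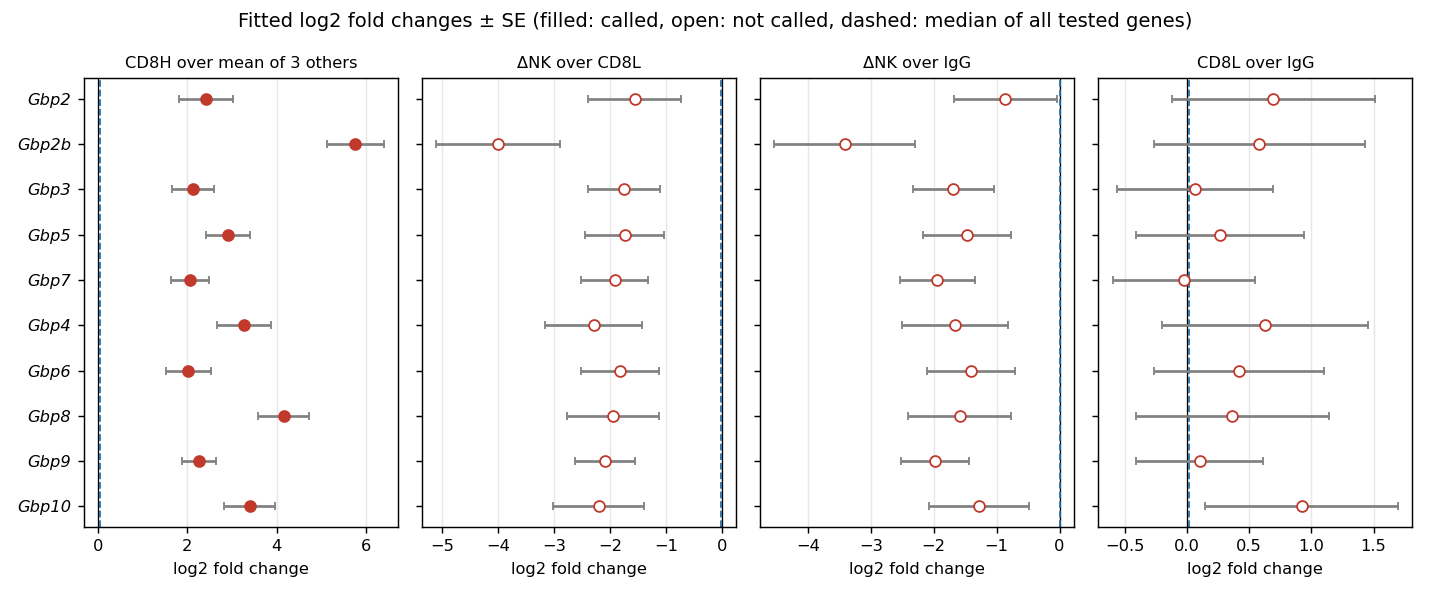
Fitted log2 fold change ± SE of each Gbp gene in 4 comparisons, with a separate horizontal scale in each panel. Filled points were called by edgeR, open points were not, and the dashed line is the median of all tested genes, which lies between -0.02 and 0.05. All 10 members are filled for CD8H tumors over the averaged other groups, and none is in the 3 other comparisons.

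ΔNK and CD8L mice both received PC blockade. The CD8L mice were sorted out of the blockade-treated mice for few CD8+ T cells in their tumors, and no such sorting is given for ΔNK mice. NK cell depletion and this sorting cannot be told apart in their comparison. Gbp2b passed the filter on low counts only through groups where it was higher, so it is left out of the counts of members here too. The 9 other members had log2 fold changes of -2.29 to -1.56 with a median of -1.92 (-0.02 over all tested genes). None of them passed the test. The 3 ΔNK tumors lay below the 3 CD8L tumors in all 9, as in 6.88% of all tested genes. Gbp9, with the smallest p, averaged 13.7 ± 10.2 CPM in ΔNK tumors and 58.5 ± 9.33 CPM in CD8L tumors (SD, n = 3 each), a log2 fold change of -2.08 (SE 0.54, edgeR adjusted p = 0.50). Gbp4 averaged 57.8 ± 48.4 CPM in ΔNK tumors and 283 ± 71.1 CPM in CD8L tumors, a log2 fold change of -2.29 (SE 0.86, edgeR adjusted p = 0.701). By edgeR, 0 of 17320 genes (0.0%) were called in this comparison. Of the 9 members, 8, all but Gbp2, were lower at an unadjusted p of at most 0.05, as were 5.33% of all tested genes. With the replicate number as a block in a fit of the ΔNK and CD8L tumors alone, where same-numbered tumors deviated together, 0 members were called. In that fit 0 of all 15530 tested genes were called. All 10 members, with Gbp2b, were lower there at an unadjusted edgeR p of at most 0.05, as were 9.23% of all tested genes. Over all 10 members, with Gbp2b, the median log2 fold change was then -2.35 and the edgeR adjusted p-values were 0.147 to 0.36. Of the 9, DESeq2 called only Gbp9 lower (DESeq2 adjusted p = 0.0307), where it called 0.498% of its genes.

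The part of ΔNK tumor 2 in this difference was measured by leaving it out. The median log2 fold change of ΔNK against CD8L tumors over the 9 members other than Gbp2b was then -1.41. All 9 were lower at an unadjusted p of at most 0.05 (3.50% of all tested genes), and the adjusted p-values by edgeR were 0.552 to 0.993. The other ΔNK tumors lay below the 3 CD8L tumors in all 9 members, as in 8.81% of all tested genes. Their mean was 30.3% of the CD8L mean in Gbp4, 32.1% in Gbp10, 33.1% in Gbp9 and 49.96% in Gbp2.

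ΔNK tumors were also compared with IgG tumors, which received no blockade. Gbp2b passed the filter on low counts only through the groups where it was higher, so it is left out of the counts of members here. The 9 other members had log2 fold changes of -1.98 to -0.86 with a median of -1.59 (0.01 over all tested genes), and none passed the test. These values share the ΔNK tumors with the comparison above. The 3 ΔNK tumors lay below the 3 IgG tumors in 8 of the 9, all but Gbp2, as in 14.0% of all tested genes. Gbp9 averaged 13.7 ± 10.2 CPM in ΔNK tumors and 54.6 ± 12.8 CPM in IgG tumors (log2 fold change -1.98, SE 0.54, edgeR adjusted p = 0.176). Gbp7 averaged 46.9 ± 34.6 CPM in ΔNK tumors and 180.2 ± 41 CPM in IgG tumors (log2 fold change -1.94, SE 0.60, edgeR adjusted p = 0.212). For Gbp2, the member with the smallest difference, the log2 fold change was -0.86 (SE 0.82, edgeR adjusted p = 0.571). By edgeR, 3 of 17320 genes (0.0173%) were called, and 3 members (Gbp3, Gbp7 and Gbp9) were lower at an unadjusted p of at most 0.05, as were 9.56% of all tested genes. DESeq2 called 2 of the 9 lower, Gbp7 and Gbp9, with adjusted p-values of 0.0294 and 0.0126, where it called 3.31% of its genes. Without ΔNK tumor 2, the median log2 fold change of the 9 was -1.05, 6 of them were lower at an unadjusted p of at most 0.05 (6.45% of all tested genes), and none was called. ΔNK tumors 1 and 3 lay below the 3 IgG tumors in 8 of the 9, as in 17.1% of all tested genes, and their mean was 35.5% of the IgG mean in Gbp9 and 80.9% in Gbp2.

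The CD8 T cell marker sum was 0.425 to 5.83 CPM in ΔNK tumors, 6.51 to 28.7 CPM in CD8L tumors and 14.1 to 30.6 CPM in IgG tumors. The macrophage marker sum was 81.7 to 158 CPM in ΔNK tumors, 120.0 to 190.2 CPM in CD8L tumors and 198 to 240.8 CPM in IgG tumors. Of its 6 genes, 5 had negative log2 fold changes in ΔNK tumors against either group. The remaining 1 was positive, at 0.86 against CD8L and 1.35 against IgG tumors. Dendritic cell markers, also 6 genes, summed to 10.1 to 17.9 CPM in ΔNK tumors, 21.5 to 33.8 CPM in CD8L tumors and 32.7 to 56.4 CPM in IgG tumors. Microglia markers summed to 69.5 to 104 CPM in ΔNK tumors, 86.9 to 194 CPM in CD8L tumors and 144 to 222 CPM in IgG tumors. Neuron marker sums were 614, 399.7 and 603 CPM in ΔNK tumors and 596, 409 and 1212 CPM in CD8L tumors. In IgG tumors they were 468 to 1179.5 CPM. Astrocyte marker sums were 224, 247 and 518 CPM in ΔNK tumors, 223, 242 and 1123 CPM in CD8L tumors and 296 to 1341 CPM in IgG tumors. Oligodendrocyte marker sums were 663, 364 and 596 CPM in ΔNK tumors, 460, 251 and 1779.8 CPM in CD8L tumors and 599 to 1064 CPM in IgG tumors. In each of these lists the highest CD8L value was that of CD8L tumor 3 alone, and the other CD8L tumors lay within or below the ΔNK range. The part of these cell types in the Gbp values was not tested. The melanoma marker sum was 19649.6 to 22268 CPM in ΔNK tumors, 18642 to 24428 CPM in CD8L tumors and 16898 to 19296 CPM in IgG tumors.

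CD8L and IgG tumors differ in whether the mice received PC blockade and in the sorting of CD8L mice for few CD8+ T cells. They overlapped in every member, which cannot be set against all genes because that share is not given here. No member passed the test. Log2 fold changes were -0.02 to 0.92 with a median of 0.39 (0.02 over all tested genes), and edgeR adjusted p-values were 0.974 to 0.998. Gbp10 had the largest difference, at 75.3 ± 19.2 CPM in CD8L tumors and 39.7 ± 16.6 CPM in IgG tumors (log2 fold change 0.92, SE 0.78). None of the 10 members had an unadjusted p of at most 0.05, as 2.19% of all tested genes did, and 0 genes (0.0%) were called by edgeR or by DESeq2. Without ΔNK tumor 2, which enters the estimate of the spread, 2 members were higher at an unadjusted p of at most 0.05, Gbp4 (log2 fold change 0.61) and Gbp10 (0.90), as 2.0% of all tested genes were in either direction, and edgeR adjusted p-values were 0.996 to 0.998. The standard errors of the members, 0.51 to 0.85 on the log2 scale, set the size of difference that could have been seen, and without ΔNK tumor 2 they were 0.18 to 0.40 in the 9 members other than Gbp2b.

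The CD8H and CD8L tumors were also combined as PC tumors. These comparisons hold the CD8H values that led to the choice of the family and are a description only. ΔNK tumors against PC tumors had log2 fold changes of -6.12 to -2.40, and 9 members, all but Gbp2, were called lower (6.99% of all tested genes were called lower). Gbp2b is among these 9. Leaving out ΔNK tumor 1 gave 2 members called and leaving out ΔNK tumor 3 gave 3. PC tumors against IgG tumors had log2 fold changes of 0.69 to 2.70, and 0 of the 10 members and 0 of 17320 genes were called by edgeR, while 5 members had an unadjusted p of at most 0.05 (2.99% of all tested genes in that direction). DESeq2 called 0 members there. The shares of all tested genes called by DESeq2 there and in the fits leaving out ΔNK tumor 1 or 3 are not given here. Those counts of members therefore cannot be set against all genes.

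Within the ΔNK group, ΔNK tumor 2 was far below the other ΔNK tumors in every Gbp gene. It was the lowest of all 12 tumors in all 10 members, as in 15.0% of all tested genes, and below 20% of each of the other ΔNK tumors in all 10, as in 2.53% of all tested genes. Gbp2b and Gbp8 had 0 counts there. For the 8 other members, its CPM was 2.01% of the mean of ΔNK tumors 1 and 3 in Gbp10, 2.27% in Gbp4, 3.56% in Gbp2 and 12.8% in Gbp9, the highest of the 8. ΔNK tumors 1 and 3 were close to each other, at 87.1 and 84.3 CPM in Gbp4 and 23.1 and 25.3 CPM in Gbp10. The immunity-related GTPases, a separate family taken up below, were also low in ΔNK tumor 2. Igtp was 22.1 CPM there against 463 and 355 CPM in ΔNK tumors 1 and 3. Iigp1 was 13.1 against 312 and 303 CPM, and Irgm1 was 60.8 against 371 and 320 CPM.

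Of the marker sums in ΔNK tumor 2, that of CD8 T cells was within the range of the Gbp genes and the others were above it. The melanoma marker sum was 89.3% and the endothelial sum 107% of the mean of ΔNK tumors 1 and 3. Sums for macrophages were 57.4%, for microglia 70.4% and for dendritic cells 63.2% of that mean, and the CD8 T cell marker sum was 9.32%, with 4 of its 6 genes at 0 counts. This library had the lowest total (16336993 counts) and the fewest genes with at least 10 counts (14992, against 15389 to 18193 in the 11 others). The part of these values in the low Gbp levels was not tested.

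**Figure D4:**
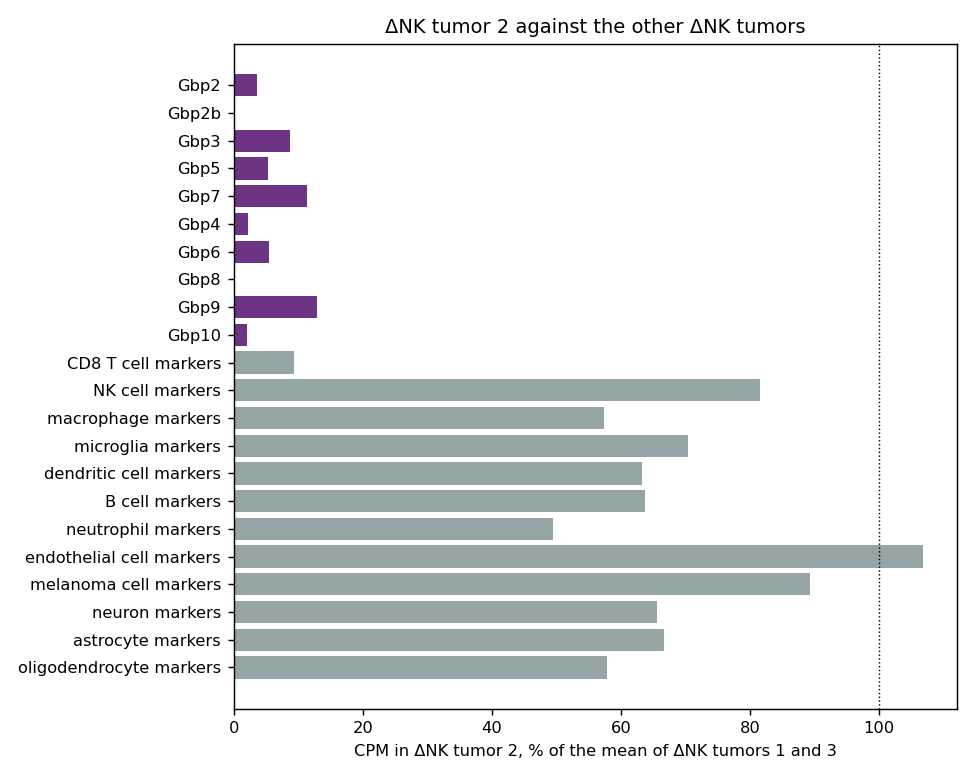
Level of each Gbp gene (purple) and the summed level of each marker list (grey) in ΔNK tumor 2, as a percent of the mean CPM of ΔNK tumors 1 and 3, with the dotted line at 100%. Gbp genes are at 0 to 12.8%, the CD8 T cell markers at 9.32% and the other marker lists at 49.4% to 107%.

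Other genes of the interferon gamma pathway were taken from lists. The immunity-related GTPases, a separate family of interferon-induced GTPases that acts with Gbp proteins on pathogen vacuoles, numbered 7. In CD8H tumors over the averaged other groups, 6 of 7 were called higher with a median log2 fold change of 1.79. In ΔNK tumors against CD8L tumors all 7 had negative log2 fold changes (median -1.69) and in ΔNK tumors against IgG tumors likewise (median -1.31), and none passed the test. These medians were -1.14 and -0.81 without ΔNK tumor 2. Tgtp1, the member with the largest difference for CD8H tumors (log2 fold change 2.38, SE 0.63), was 873, 587 and 581 CPM in CD8H tumors, 84.3, 1.64 and 64.9 CPM in ΔNK tumors, 342, 125 and 279 CPM in CD8L tumors and 246, 145 and 144 CPM in IgG tumors. Its groups took the same places as those of the Gbp genes, with ΔNK tumor 2 lowest. Gm12250 and Tgtp2 followed with log2 fold changes of 2.20 and 1.90, and Tgtp1 and Tgtp2 are near-identical copies whose counts are uncertain.

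Of 8 genes of interferon gamma and its receptor signaling, 7 were called higher in CD8H tumors (median log2 fold change 1.16), and none passed the test in ΔNK against CD8L or IgG tumors (medians -0.65 and -0.40, and -0.36 and -0.16 without ΔNK tumor 2). Ifng, the cytokine gene itself, was 14.7, 12.5 and 5.69 CPM in CD8H tumors, 0.820, 0 and 0.470 CPM in ΔNK tumors, 2.06, 0.612 and 1.02 CPM in CD8L tumors and 1.87, 0.906 and 0.6998 CPM in IgG tumors. It was above all others in CD8H tumors (log2 fold change 3.66, SE 0.58), and ΔNK tumor 1 lay within the range of the CD8L and IgG tumors. Socs1, which encodes a feedback inhibitor of the pathway, and Irf1, an interferon-induced transcription factor, had log2 fold changes of 2.32 and 1.68 for CD8H tumors. Ifngr2, a receptor chain, was the exception at -0.03 (SE 0.15). Of 8 further Irf and Stat genes, 6 were called higher in CD8H tumors (median 1.06), led by Irf8 (2.20), Irf7 (1.82) and Irf5 (1.82), and none passed the test among the other groups.

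Genes through which Gbp proteins act in infected cells were also measured. All 9 genes of the inflammasome and pyroptosis list were called higher in CD8H tumors (median 1.87), among them Il1b, the cytokine released on inflammasome activation (3.34, SE 0.47), the protease gene Casp1 (2.51, SE 0.36) and the DNA sensor Aim2 (2.12, SE 0.19). All 5 phagocyte oxidase genes were called higher (median 1.93), led by Ncf4 (2.59), Cybb (2.20) and Ncf1 (1.93). None of these 14 genes passed the test in ΔNK against CD8L or IgG tumors, where list medians were -1.09 and -1.13 for the inflammasome list and -1.06 and -1.47 for the oxidase. These were -0.74 and -0.79 for the inflammasome list and -0.83 and -1.27 for the oxidase without ΔNK tumor 2. The enzymes of prenylation ran the other way, with 0 of 6 higher and 2 of 6 lower in CD8H tumors (median -0.25; Fnta and Icmt), and Fnta, a farnesyltransferase subunit, had the largest difference (-0.60, SE 0.13), followed by Rce1 (-0.32) and Zmpste24 (-0.29). The atlastins, membrane GTPases of the same superfamily that are not induced by interferon, gave 0 of 3 called (Atl1 -0.01, Atl2 -0.12, Atl3 -0.04). All of these lists were chosen with earlier results of these data known, and their counts for CD8H tumors stand beside 14.4% of all tested genes called higher and 11.9% called lower.

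**Figure D5:**
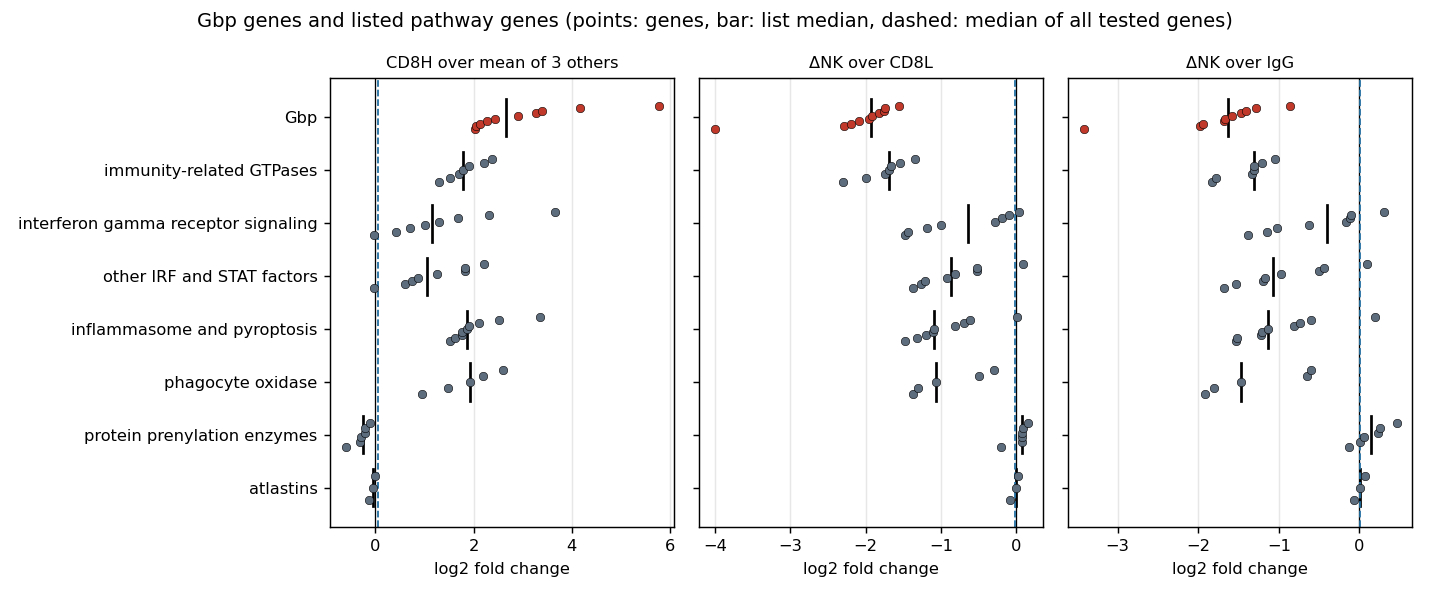
Log2 fold changes of the Gbp genes (red) and of 7 pathway lists (grey) in CD8H tumors over the averaged other groups, in ΔNK against CD8L tumors and in ΔNK against IgG tumors. Points are genes, black bars are list medians and the dashed line is the median of all tested genes. The Gbp medians are 2.67, -1.93 and -1.62 over all 10 genes, with Gbp2b. The first holds the CD8H values on which the family was selected.

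Across the 12 tumors the members varied together. Pearson's r of log2 CPM over the 45 pairs of members had a median of 0.983 and a range of 0.785 to 0.997, and within groups, with the group means removed, the median was 0.979 and the lowest r was 0.259. Without ΔNK tumor 2 the median r was 0.953 over the 11 other tumors and 0.797 within groups, with a lowest r of 0.017 within groups. The points share the libraries and the group differences, so these values are descriptions. The member least like the others was Gbp2b, with r = 0.869 to the mean z-score of the family, and the most like it was Gbp4 with r = 0.998.

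Outside the family, 8 genes were named for the highest r with that mean z-score over the 12 tumors, among 11794 genes whose log2 CPM averaged 2 or more. They were A530040E14Rik (r = 0.998), Ifi211 (0.997), Sp110 (0.995), Ciita (0.994), Oas3 (0.993), Parp14 (0.992), Ifi203 (0.992) and Apol10b (0.992). Ifi211 and Ifi203 belong to the family of interferon-inducible DNA-binding proteins that also holds Aim2, Ciita encodes the master regulator of MHC class II genes, and Oas3 encodes an interferon-induced sensor of double-stranded RNA. Without ΔNK tumor 2 and CD8H tumor 1, the tumors farthest from the median of the z-score, r was 0.972 to 0.994 for these 8 genes. Ciita was 196, 135 and 106 CPM in CD8H tumors, 17.0, 0.728 and 10.3 CPM in ΔNK tumors, 43.9, 23.0 and 34.7 CPM in CD8L tumors and 42.4, 20.5 and 27.4 CPM in IgG tumors. Irf1 had r = 0.983 with the z-score and Ifng 0.951, which was rank 248 among the tested genes outside the family. The 6 CD8 T cell markers had r of 0.862 (Cd3e) to 0.975 (Trac) and the 6 macrophage markers -0.359 (Mrc1) to 0.935 (Adgre1). The 6 melanoma markers had -0.587 (Tyrp1) to 0.297 (Mlana). Of the 11794 genes, 580 had an r at least that of Gbp2b, the lowest of the members.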

How the data were processed

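Bulk mRNA-seq libraries of dissociated tumor tissue (polyadenylated RNA, paired ends) were used, 3 per group. The authors aligned reads to GRCm38.p6 with STAR 2.6.1d, used StringTie 1.3.3b, and counted reads with featureCounts 1.5.0-p3 to give the deposited count table, which they tested with DESeq2 1.26.0. The deposited FPKM of the authors are those counts scaled by library total and a fixed length per gene, which for Gbp4 was 2404 bases against 7494 in the annotation columns. For strand, multi-mapped reads and annotation release, the settings were not given in the sources used here.

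The untransformed counts entered edgeR 4.0.16 in R 4.3.3 (TMM, filterByExpr, quasi-likelihood test, all 12 libraries in 1 fit, 8 residual degrees of freedom), and a gene was called where both its p and its Benjamini-Hochberg adjusted p over all 17320 genes were at most 0.05. The 9 comparisons were the 6 group pairs, CD8H over the averaged other groups, and PC (CD8H and CD8L) against IgG and ΔNK. Log2 CPM used a prior count of 2. The labels number the 3 samples of a group as replicates without naming the mice, so p-values measure the spread between these samples. No replicate pair agreed within sampling noise (chi-square 15.4 to 148 per degree of freedom). The edgeR steps were tested on simulated data.

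The members and gene lists were chosen with earlier results of these data known. All members are named; from each list, genes called in a comparison without CD8H tumors and up to 3 with the largest difference for CD8H tumors; and the 8 genes most like the family. Replicate numbers were checked for pairing by the correlation of same-numbered deviations from the group means, which exceeded 0.1 in every pair only for ΔNK with CD8L tumors (0.476 to 0.587), so that a fit of these groups with the number as a block was added after seeing the data. Alternatives were DESeq2 1.42.0, RLE normalization, no filter, fits of the compared groups only, the replicate number as a block, leaving out each library, FPKM, and sums per cluster. Motifs were searched in RefSeq promoter windows and shared stretches in GENCODE transcripts whose coordinates equal those of the table for all 10 members.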

Additional observations from a re-analysis of the deposited data

How the results depend on the processing

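Numbers of members called depended on the setting where CD8H tumors were compared with a single group. Against IgG tumors (1 member called), the count was 3 with no low-count filter, 0 in a fit of the compared groups only, 7 by DESeq2 and 0 to 10 over the fits leaving out 1 tumor. Against CD8L tumors (2 called), it was 0 in a fit of the compared groups only, 6 by DESeq2 and 0 to 10 leaving out 1 tumor. In both comparisons the 10 came from leaving out ΔNK tumor 2, where 4.2% of all tested genes were called against IgG and 11.5% against CD8L tumors. For ΔNK against PC tumors (9 called) it was 4 in a fit of the compared groups only and 2 to 10 leaving out 1 tumor, with 2 without ΔNK tumor 1 and 3 without ΔNK tumor 3. ΔNK against IgG and ΔNK against CD8L tumors (0 called) gave 3 and 2 by DESeq2, both with Gbp2b (3.31% and 0.498% of its genes). They gave 0 in every fit leaving out 1 tumor. For the other settings in this section the share of all tested genes called is not given. Those counts of members therefore cannot be set apart from a shift over all genes. The cause of these shifts was not tested.

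Same-numbered tumors deviated together in every pair for ΔNK with CD8L tumors only, and over the 18 pairs of all groups r was -0.36 to 0.73 and above 0.1 in 11. With the number as a block in the fit of all groups, 3 members were called for CD8H against IgG and 3 for CD8H against CD8L tumors, and the other counts were as without it.

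The sign of 3 members between CD8L and IgG tumors turned when 1 tumor was left out, at log2 fold changes of -0.13 to 0.30 in Gbp3, -0.30 to 0.20 in Gbp7 and -0.027 to 0.26 in Gbp9. The chromosome 5 sum with Gbp11 added, an alternative chosen after seeing the data, gave log2 fold changes of 3.04 for CD8H tumors over the averaged other groups, -2.09 for ΔNK against CD8L and -1.52 for ΔNK against IgG tumors. Gbp2b and Gbp8 in ΔNK tumors are limited by counting error, and Gbp6 and Gbp10 by shared reads.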
